A study of Mus musculus with 11 samples.

Results

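The nephron is built and kept in its segments by transcription factors that each act in part of the tubule, and 8 of them were followed here in the kidneys of mice that develop lupus nephritis later in life. The 8 genes, Hnf4a, Pax2, Pax8, Emx1, Tfcp2l1, Grhl2, Gata3 and Esrrg, were taken as a family by name and were found in the arrays by gene symbol and Entrez number. Rows of the array table were found for 7 of the 8, among 16475 genes in all; 6 matched by their present symbol, and Tfcp2l1 matched through its older symbol Tcfcp2l1. Pax2, which is expressed in the ureteric bud and in early nephrons, was not analysed here. By RefSeq on GRCm38.p6 the 7 genes lie on 4 chromosomes, with Hnf4a (Entrez 15378), Pax8 (18510) and Gata3 (14462) on chromosome 2, Tfcp2l1 (81879) and Esrrg (26381) on chromosome 1, Emx1 (13796) on chromosome 6 and Grhl2 (252973) on chromosome 15. All 7 measured genes were called above baseline in both strains by the deposited lists.

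RNA of whole kidneys was hybridised to Affymetrix arrays before nephritis. There were 7 NZB/W kidneys, taken at 6 weeks of age, and 4 NZW/BXSB kidneys, taken at 8 weeks. By the study's methods the NZB/W mice were female F1 animals of NZB and NZW, the NZW/BXSB mice were male F1 animals of NZW and BXSB, and kidneys of both strains were perfused with saline before harvest; the 2 crosses share the NZW genome and neither is a disease-free control. Strain, sex, age and set of arrays therefore cannot be told apart, and a p-value measures only the spread between these kidneys. In the deposited table the median log2 expression of tested genes was 7.38 ± 0.01 in NZB/W kidneys (SD, n = 7) and 8.08 ± 0.04 in NZW/BXSB kidneys (SD, n = 4), an offset that moved the median gene by -0.69 between strains. The arrays were therefore brought to a common scale by quantile normalization, on which the median difference of the 14419 tested genes was -0.01, and every level and difference below is a log2 value on that scale unless the deposited scale is named. Differences are NZB/W minus NZW/BXSB, so each direction is relative to the other genes on the arrays, and calls were made by limma at an adjusted p below 0.05 over all tested genes.

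A tubule segment is recognised by the transporters it carries, and a small set of factors holds each set of transporters in place. Hnf4a, a nuclear receptor, drives proximal tubule genes in the mouse, and Pax8, a paired-box factor, acts with Pax2 from the first epithelial vesicles onward and stays on in the mature tubule and collecting duct. Esrrg, an orphan nuclear receptor of the estrogen-related group, controls mitochondrial and transport genes in the loop and distal tubule, and Emx1, a homeobox factor, is known from zebrafish for its part in the distal nephron. Tfcp2l1, Grhl2 and Gata3 belong to the collecting system: Tfcp2l1 patterns principal and intercalated cells, Grhl2 maintains the epithelial barrier of the collecting duct, and Gata3, a zinc-finger factor, is needed for the ureteric bud and remains in the collecting duct.

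As a group the factors did not move in 1 direction. Grhl2 and Esrrg were higher in NZB/W kidneys on the common scale and Pax8, Tfcp2l1 and Gata3 were lower, whereas on the deposited scale Grhl2 was lower and Esrrg did not pass (-0.12, adjusted p = 0.219). Thus 5 of the 7 passed the test on the common scale, beside 69.4% of all tested genes, with 2 higher (beside 33.3%) and 3 lower (beside 36.1%). Hnf4a and Emx1 did not pass. On the deposited scale, where 89.5% of all tested genes passed, 0 of the 7 were higher (beside 5.56%) and 6 were lower (beside 84%). In 2 of the 7, Gata3 and Esrrg, no NZB/W kidney overlapped an NZW/BXSB kidney, beside 54.6% of all tested genes. The median difference of the 7 was -0.03 and the median size of a difference was 0.17, against -0.01 and 0.31 over all tested genes. On the study's own limits of fold change (a ratio of 1.4 or more, or of 0.7 or less, with 0.001 as the ceiling of the adjusted p) Gata3 and Esrrg passed, beside 27.9% of all tested genes. The first and last of these shares are close to those of all genes and the second is below it, and the values of single factors are given next.

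**Figure D1:**
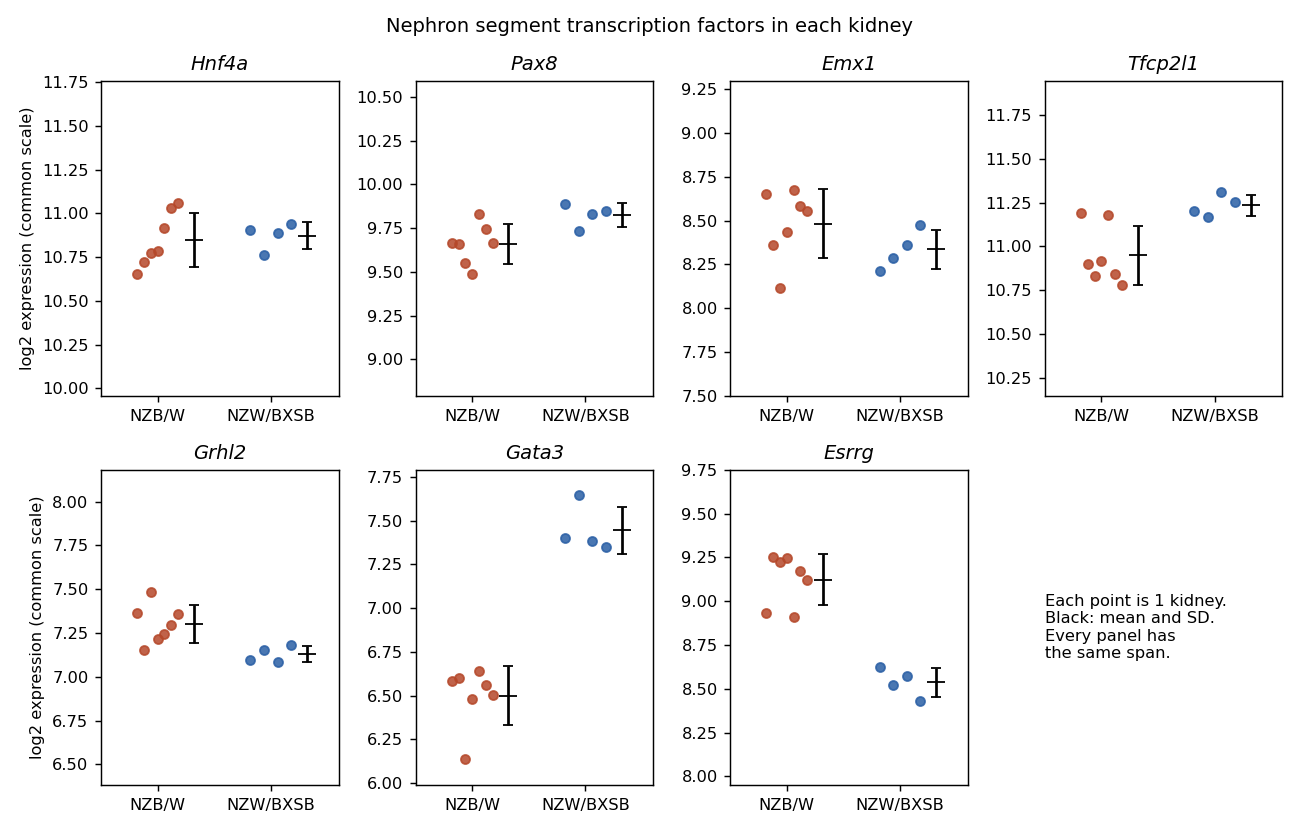
Log2 expression of the 7 factors on the common scale, 1 point for each kidney, NZB/W left of NZW/BXSB, with the mean and SD in black; every panel spans the same number of log2 units. Gata3 lay at 6.14 to 6.64 in NZB/W kidneys and at 7.35 to 7.64 in NZW/BXSB kidneys, Esrrg lay at 8.91 to 9.25 in NZB/W kidneys and at 8.43 to 8.63 in NZW/BXSB kidneys, and the other 5 overlapped between strains.

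The stretches of DNA just upstream of 3 factors are printed for reference: Hnf4a, since it has 2 annotated starts behind a single array value, and Gata3 and Esrrg, the 2 factors without overlap between strains. Sequences were taken from RefSeq on the mouse build GRCm38.p6, as the 250 bases before each annotated start, written in the direction of transcription. Capitals mark matches on either strand to short motifs, whose shares are given over 32851 such windows of mouse genes. The GC box of Sp1-like factors, spelled GGGCGG, was held by 32.7% of windows. The TATA box that places the start, spelled TATAAA, was held by 12.4%, and the CCAAT box, which is searched by the letters of its name, was held by 33.8%. A match is a description of letters and not a binding site.
Hnf4a upstream start, chr2:163506607-163506856, plus strand: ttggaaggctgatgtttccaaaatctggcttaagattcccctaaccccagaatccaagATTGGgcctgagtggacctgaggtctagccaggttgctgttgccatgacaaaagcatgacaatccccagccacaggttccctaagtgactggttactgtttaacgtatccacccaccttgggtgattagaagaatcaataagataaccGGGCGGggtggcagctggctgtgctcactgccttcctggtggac
Hnf4a downstream start, chr2:163546905-163547154, plus strand: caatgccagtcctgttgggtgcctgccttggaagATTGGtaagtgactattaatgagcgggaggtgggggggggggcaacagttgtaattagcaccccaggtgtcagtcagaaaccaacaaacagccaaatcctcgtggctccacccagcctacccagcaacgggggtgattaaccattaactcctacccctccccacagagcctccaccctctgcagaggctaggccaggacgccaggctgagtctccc
Gata3, chr2:9878601-9878850, minus strand: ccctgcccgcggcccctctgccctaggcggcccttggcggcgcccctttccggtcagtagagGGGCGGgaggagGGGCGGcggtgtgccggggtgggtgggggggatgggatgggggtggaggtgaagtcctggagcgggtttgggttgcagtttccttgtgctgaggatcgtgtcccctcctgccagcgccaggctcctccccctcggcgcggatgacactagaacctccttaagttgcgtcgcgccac
Esrrg most downstream start of 4, chr1:187997577-187997826, plus strand: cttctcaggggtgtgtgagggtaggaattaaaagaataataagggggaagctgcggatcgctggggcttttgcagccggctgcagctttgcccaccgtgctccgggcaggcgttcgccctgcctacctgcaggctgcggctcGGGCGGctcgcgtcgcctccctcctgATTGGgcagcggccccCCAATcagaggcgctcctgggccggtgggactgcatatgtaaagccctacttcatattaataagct
The Hnf4a starts lay 40298 bases apart, and the upstream window held a GC box and a CCAAT box, the downstream window a CCAAT box. The Gata3 window was 70% G and C and held 2 GC boxes, and the Esrrg window held 1 GC box and 2 CCAAT boxes. Windows were at hand for 6 of the 7 factors, with 10 windows in all; GC boxes occurred in 6 of them, TATA boxes in 2 and CCAAT boxes in 4. The arrays give a single value per gene and cannot tell the starts of Hnf4a or of Esrrg apart.

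In the proximal tubule, Hnf4a was not called, and its strains differed by less than the spread of the kidneys. NZB/W kidneys lay between 10.65 and 11.06 with a median of 10.78, against 10.91, 10.76, 10.89 and 10.94 in NZW/BXSB replicates 1 to 4. All 4 NZW/BXSB values lay inside the NZB/W range, and NZB/W replicates 6 and 7 were the highest of all. The means were 10.85 ± 0.16 in NZB/W kidneys (SD, n = 7) and 10.87 ± 0.08 in NZW/BXSB kidneys (SD, n = 4), which is a difference of -0.03 (95% interval -0.20 to 0.15, limma, adjusted p = 0.791). On the deposited scale the difference was -0.73, close to the offset of all genes, and without NZB/W replicate 1 it was 0.01 on the common scale. The paralog Hnf4g averaged 6.05 ± 0.13 in NZB/W and 6.07 ± 0.14 in NZW/BXSB kidneys (SD). It did not pass (difference -0.02, limma, adjusted p = 0.823), and its difference was -0.66 on the deposited scale.

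Genes that Hnf4a is known to drive were uneven between strains. Of 12 such genes 5 were higher in NZB/W kidneys, 1 was lower and 6 did not pass, with a median difference of 0.11. Of all tested genes 33.3% were higher and 36.1% lower. On the deposited scale 1 was higher and 11 were lower, beside 5.56% and 84% of all tested genes. Slc22a8, the organic anion transporter Oat3, lay at 9.79 to 10.71 in NZB/W kidneys and at 8.67 to 8.76 in NZW/BXSB kidneys, a difference of 1.49 (SE 0.14, limma, adjusted p = 7.14e-07), and it was the gene of the 12 that stayed higher on the deposited scale. Slc22a6, the related transporter Oat1, ran the other way, with 10.24 to 11.17 in NZB/W kidneys and 11.82 to 12.07 in NZW/BXSB kidneys (difference -1.11, SE 0.15). The endocytic receptors of the brush border were higher on the common scale and lower on the deposited scale: Lrp2 (megalin) by 0.48 ± 0.05 and Cubn (cubilin) by 0.37 ± 0.09 (difference ± SE). No overlap was seen for any of these 4 genes, beside 54.6% of all tested genes without overlap. They were named for having the smallest p of the 12, so their separation follows in part from that choice. Called targets of Hnf4a stood on both sides of 0, as did called genes over the whole arrays, and Hnf4a itself was not called.

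Other factors of the proximal tubule were called on both sides as well. Of 6 tested, 2 were higher (beside 33.3% of all tested genes), 1 was lower (beside 36.1%) and 3 did not pass (median 0.12). On the deposited scale 0 were higher and 4 lower. Nr1h4, the bile acid receptor FXR, lay at 9.44 to 9.85 in NZB/W kidneys and at 10.25 to 10.91 in NZW/BXSB kidneys, 2.0-fold lower (adjusted p = 4.85e-06). Maf, a bZIP factor, and Rxra, the partner of several nuclear receptors, were higher by 0.59 ± 0.11 and 0.26 ± 0.05 (difference ± SE) on the common scale, at -0.13 and -0.44 on the deposited scale. Ppara, the receptor that drives fatty acid oxidation, lay at 9.12 to 10.26 in NZB/W kidneys and at 9.44 to 9.61 in NZW/BXSB kidneys and did not pass (difference 0.37, adjusted p = 0.0613). Proximal tubule markers as a whole were also uneven, with 7 of 12 higher (beside 33.3% of all tested genes), 3 lower (beside 36.1%) and 2 not passing. On the deposited scale 2 were higher and 9 were lower, beside 5.56% and 84% of all tested genes. The mean level of the markers lay at 12.11 to 12.39 in NZB/W kidneys and at 11.99 to 12.07 in NZW/BXSB kidneys. In whole kidneys, fewer cells of a type and less RNA per cell cannot be told apart.

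Pax8 was slightly lower in NZB/W kidneys. Its levels ran from 9.49 to 9.83 with a median of 9.66 in NZB/W kidneys, against 9.89, 9.73, 9.83 and 9.85 in NZW/BXSB replicates 1 to 4. NZB/W replicates 5 and 6 reached into the NZW/BXSB range, and the other 5 lay below it. The means were 9.66 ± 0.11 (SD, n = 7) in NZB/W and 9.83 ± 0.07 (SD, n = 4) in NZW/BXSB kidneys, a difference of -0.17 (SE 0.06, 95% interval -0.31 to -0.03), or 1.12-fold, with an adjusted p of 0.0334 by limma. The call did not hold without NZB/W replicate 3 or 4 or without NZW/BXSB replicate 1, 3 or 4, where the difference was -0.17 to -0.14 and the adjusted p 0.0549 to 0.0972.

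Targets known for Pax2 and Pax8 in the developing kidney were called on both sides. Of the 4 above baseline in both strains, 3 (Lhx1, Wt1 and Wnt4) were lower and 1 was higher on the common scale, where 36.1% of all tested genes were lower and 33.3% higher, and all 4 were lower on the deposited scale, as were 84% of all tested genes. Fgf8 entered the test through NZW/BXSB kidneys alone and is given apart. Lhx1, a LIM factor of the renal vesicle, averaged 6.54 ± 0.12 in NZB/W kidneys and 7.12 ± 0.09 in NZW/BXSB kidneys, without overlap (difference -0.58, SE 0.07, adjusted p = 6.59e-06). Wt1, the podocyte zinc-finger factor, was lower by 0.51 in NZB/W kidneys (SE 0.11), with overlap between the strains. Fgf8 (difference -0.57) was called above baseline in NZW/BXSB kidneys, at 5.31 ± 0.15, and not in NZB/W kidneys, at 4.73 ± 0.13, and no bound is given for its fold change, since both levels lay under 5.42, the level below which 95% of genes called below baseline in NZB/W lay. Slc14a2, the urea transporter of the inner medulla, was the gene that ran the other way on the common scale, with 8.51 to 8.99 in NZB/W kidneys and 8.24 to 8.33 in NZW/BXSB kidneys, and it was lower by 0.20 on the deposited scale. Ret and Gdnf, the receptor and ligand of ureteric bud outgrowth, were below baseline in both strains and were not tested.

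Among the paralogs of Pax8, called genes lay on both sides at low levels. Pax9, Pax3, Pax1 and Pax7 were higher in NZB/W kidneys on the common scale, by 0.62, 0.49, 0.32 and 0.26, and none of them was called higher on the deposited scale. The Pax7 mean of 5.40 in NZB/W kidneys lay under 5.42, below which 95% of genes called below baseline in that strain lay. Background therefore limits the Pax7 difference. Pax4 was lower, at 6.55 ± 0.03 in NZB/W kidneys and 7.05 ± 0.13 in NZW/BXSB kidneys. Pax5 did not pass the test (0.01), and Pax6 was below baseline in both strains. These genes are known for other organs (the pancreas for Pax4, muscle for Pax3 and Pax7, the thymus and skeleton for Pax1 and Pax9).

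**Figure D2:**
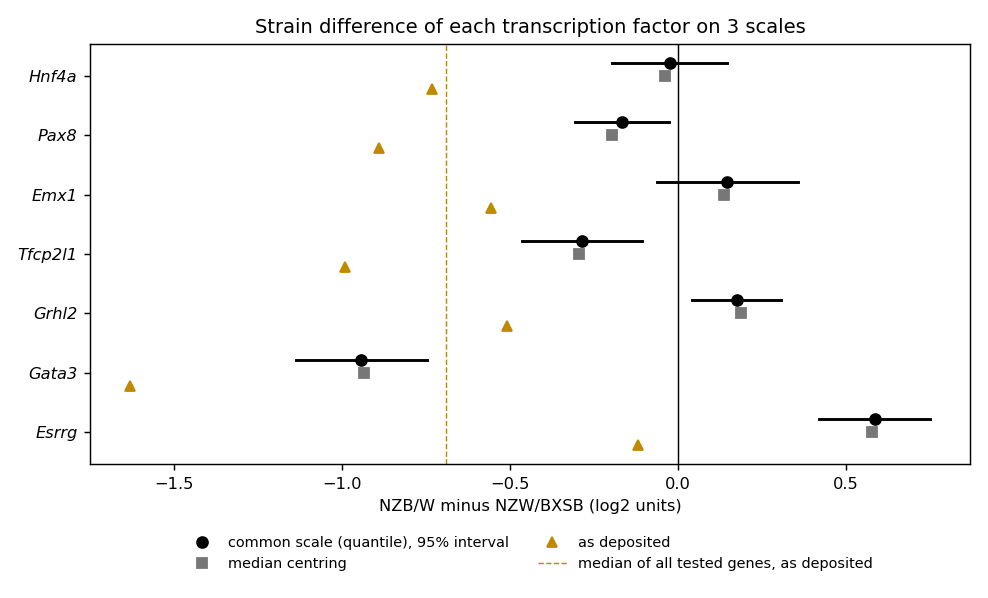
Difference between strains (NZB/W minus NZW/BXSB, log2 units) for each factor on the common scale with its 95% interval, after median centring, and as deposited; the dashed line is the median of all tested genes as deposited (-0.69). Median centring left every factor on the same side of 0 as the common scale, whereas on the deposited scale all 7 factors lay below 0.

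In the loop and distal tubule, Esrrg was higher in NZB/W kidneys. Its levels ran from 8.91 to 9.25 with a median of 9.17 in NZB/W kidneys, against 8.63, 8.52, 8.57 and 8.43 in NZW/BXSB replicates 1 to 4. The lowest NZB/W kidneys, replicates 5 and 1 at 8.91 and 8.93, still lay above the highest NZW/BXSB kidney. The means were 9.12 ± 0.15 (SD, n = 7) in NZB/W and 8.54 ± 0.08 (SD, n = 4) in NZW/BXSB kidneys, a difference of 0.59 (SE 0.08, 95% interval 0.42 to 0.75), or 1.50-fold (limma, adjusted p = 1.34e-05). Leaving out any single kidney kept the difference between 0.55 and 0.62 and the call. On the deposited scale the means were 8.87 in NZB/W and 8.99 in NZW/BXSB kidneys, a difference of -0.12 that did not pass (adjusted p = 0.219), while the median gene differed by -0.69 there.

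The coactivators of Esrrg were called higher in NZB/W kidneys on the common scale, and neither was called on the deposited scale. Of 12 targets and partners 5 were higher (beside 33.3% of all tested genes), 2 lower (beside 36.1%) and 5 did not pass, with a median of 0.09. On the deposited scale 0 were higher (beside 5.56%) and 10 were lower (beside 84%). Ppargc1a, the coactivator PGC-1 alpha, lay at 10.01 to 10.89 in NZB/W kidneys and at 9.23 to 9.73 in NZW/BXSB kidneys, 2.09-fold higher (difference 1.07, SE 0.15, adjusted p = 3.24e-05), and kept a positive value of 0.36 on the deposited scale (adjusted p = 0.0716). Ppargc1b, its relative PGC-1 beta, lay at 9.69 to 10.27 in NZB/W kidneys and at 8.94 to 9.42 in NZW/BXSB kidneys, 1.80-fold higher, and was 0.13 on the deposited scale (adjusted p = 0.308). Acadm, the medium-chain acyl-CoA dehydrogenase of fatty acid oxidation, was higher by 0.42 ± 0.06 on the common scale and lower by 0.21 on the deposited scale. Kcne1, a potassium channel subunit, was lower by 0.32 in NZB/W kidneys (SE 0.05). Both coactivators and Acadm, and Kcne1 in the other direction, had no overlap between strains on the common scale, beside 54.6% of all tested genes. They were named for having the smallest p of the 12, so their separation follows in part from that choice.

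Of the related receptors, Esrra was lower and Esrrb was not called. Esrra lay at 9.71 to 10.14 in NZB/W kidneys and at 10.09 to 10.28 in NZW/BXSB kidneys and was lower by 0.28 in NZB/W kidneys (SE 0.08, adjusted p = 0.00715). Esrrb averaged 7.49 ± 0.20 in NZB/W kidneys and 7.44 ± 0.04 in NZW/BXSB kidneys and did not pass (adjusted p = 0.661).

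Emx1 was not called. NZB/W kidneys ran from 8.12 to 8.67 with a median of 8.56, against 8.22, 8.29, 8.36 and 8.48 in NZW/BXSB replicates 1 to 4. The 4 NZW/BXSB values lay inside the NZB/W range, whose lowest value came from replicate 3. The means were 8.48 ± 0.20 (SD, n = 7) in NZB/W and 8.34 ± 0.11 (SD, n = 4) in NZW/BXSB kidneys, which is a difference of 0.15 (95% interval -0.06 to 0.36, limma, adjusted p = 0.195). Without NZB/W replicate 3 the difference was 0.21 and was called (adjusted p = 0.0253), and on the deposited scale it was -0.56. Emx2, the paralog needed for the ureteric bud in the mouse, lay at 8.99 to 9.35 in NZB/W kidneys and at 8.80 to 8.85 in NZW/BXSB kidneys, with a difference of 0.34 on the common scale (SE 0.07, adjusted p = 0.000732) and -0.37 on the deposited scale.

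Of 10 other factors of the loop and distal tubule 2 were higher, 2 lower and 6 did not pass, with a median of 0.05 (0 higher and 9 lower on the deposited scale). Pou3f3, the POU factor Brn1 that is needed for the loop of Henle in the mouse, lay at 9.24 to 9.58 in NZB/W kidneys and at 8.74 to 9.04 in NZW/BXSB kidneys, 1.52-fold higher (adjusted p = 6.85e-06). Sim1 was higher by 0.53 ± 0.05 in NZB/W kidneys; both had small negative values on the deposited scale, of -0.10 and -0.17. Tfap2a was lower by 0.45 ± 0.08 and Irx3 by 0.31 ± 0.10 (difference ± SE). Beside these, 6 of 7 thick ascending limb and 5 of 7 distal convoluted tubule markers were higher on the common scale. None of either list was lower there, while 33.3% of all tested genes were higher and 36.1% lower. Without NZW/BXSB replicate 1 the first count was 3. On the deposited scale 0 were higher, and 5 and 4 were lower, beside 5.56% and 84% of all tested genes. The mean levels of the 2 lists lay at 10.55 to 10.74 and 10.15 to 10.65 in NZB/W kidneys. In NZW/BXSB kidneys they lay at 10.27 to 10.39 and 9.95 to 10.02. The part of these segments' share of the tissue in the values of Esrrg, Pou3f3 and Sim1 was not tested.

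**Figure D3:**
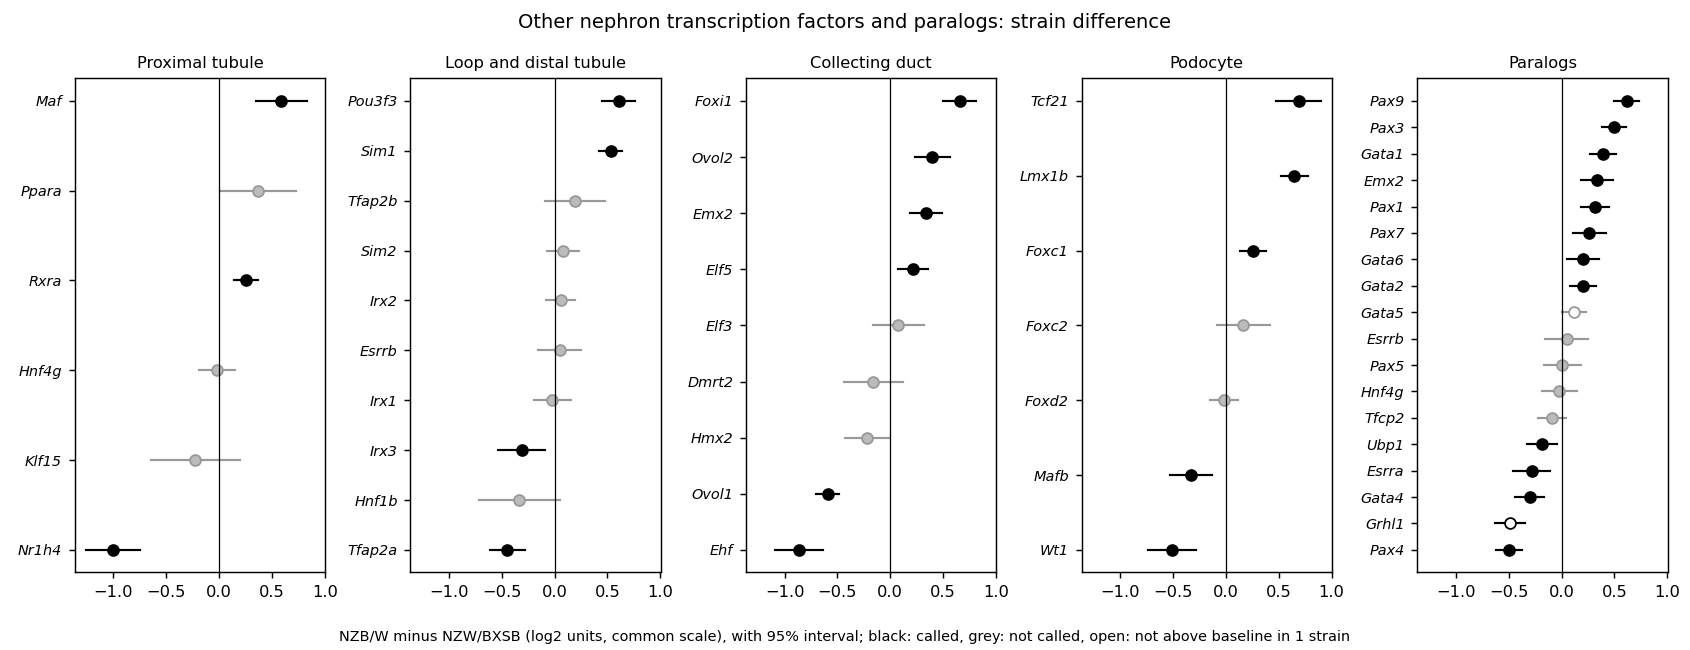
Difference between strains (NZB/W minus NZW/BXSB, log2 units, common scale) with its 95% interval for other transcription factors of the proximal tubule, the loop and distal tubule, the collecting duct and podocytes, and for paralogs of the 7 factors; black points were called, grey points were not, and open points were not above baseline in 1 strain. Every panel holds called genes on both sides of 0, where 33.3% of all tested genes were higher and 36.1% lower. On the deposited scale no gene of these panels was called higher, beside 5.56% of all tested genes.

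In the collecting duct, Tfcp2l1 was lower in NZB/W kidneys. Its levels ran from 10.78 to 11.19 with a median of 10.90 in NZB/W kidneys, against 11.20, 11.17, 11.31 and 11.25 in NZW/BXSB replicates 1 to 4. NZB/W replicates 1 and 5, at 11.19 and 11.18, stood apart from the other 5 and reached the lowest NZW/BXSB kidney. The means were 10.95 ± 0.17 (SD, n = 7) in NZB/W and 11.23 ± 0.06 (SD, n = 4) in NZW/BXSB kidneys, a difference of -0.29 (SE 0.08, 95% interval -0.46 to -0.11), or 1.22-fold (limma, adjusted p = 0.00731). Leaving out any single kidney kept it between -0.33 and -0.26 and kept the call.

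Targets known for Tfcp2l1 were called on both sides. Of 6 tested, 3 were higher (beside 33.3% of all tested genes), 2 lower (beside 36.1%) and 1 did not pass (median 0.02). On the deposited scale all 6 were lower, beside 84%. The Notch ligand Jag1 lay at 6.33 to 6.78 in NZB/W kidneys and at 6.95 to 7.15 in NZW/BXSB kidneys, whereas the receptor Notch1 lay at 8.29 to 8.63 in NZB/W kidneys and at 8.02 to 8.21 in NZW/BXSB kidneys. Atp6v1b1, the proton pump subunit of intercalated cells, was lower by 0.77 ± 0.18, and Slc4a1, the anion exchanger of the same cells, was higher by 0.41 ± 0.12 on the common scale and lower by 0.29 on the deposited scale. Of the paralogs, Ubp1 was lower by 0.18 ± 0.07 and Tfcp2 did not pass at -0.09.

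Grhl2 was slightly higher in NZB/W kidneys on the common scale. Its levels ran from 7.16 to 7.48 with a median of 7.30 in NZB/W kidneys, against 7.09, 7.15, 7.08 and 7.18 in NZW/BXSB replicates 1 to 4. The strains overlapped in NZB/W replicate 2, and the other 6 NZB/W kidneys lay above all NZW/BXSB kidneys. The means were 7.30 ± 0.11 (SD, n = 7) in NZB/W and 7.13 ± 0.05 (SD, n = 4) in NZW/BXSB kidneys, a difference of 0.17 (SE 0.06, 95% interval 0.04 to 0.31), or 1.13-fold (limma, adjusted p = 0.0219). On the deposited scale the difference was -0.51. The call was lost without NZW/BXSB replicate 1 (adjusted p = 0.0598) or 3 (adjusted p = 0.0644), at 0.16 each.

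Targets known for Grhl2, which serve epithelial junctions and splicing, were called on both sides as well. Of 9 tested, 4 were higher (beside 33.3% of all tested genes), 3 lower (beside 36.1%) and 2 did not pass (median 0.09). On the deposited scale all 9 were lower, beside 84%. Esrp1, an epithelial splicing regulator, lay at 7.39 to 7.88 in NZB/W kidneys and at 8.12 to 8.22 in NZW/BXSB kidneys, 1.42-fold lower (adjusted p = 4.38e-05). The junction gene Cldn4 was lower by 0.39 ± 0.08 (difference ± SE). The zinc-finger factors Ovol1 and Ovol2, also counted among the collecting duct factors, differed in opposite directions, Ovol1 by -0.59 ± 0.05 and Ovol2 by 0.40 ± 0.08 on the common scale, with -0.22 for Ovol2 on the deposited scale. Grhl1 was above baseline in NZW/BXSB kidneys and not in NZB/W kidneys, at least 1.29-fold lower in NZB/W when set against that level of 5.42, and Grhl3 was below baseline in both.

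Gata3 differed most among the 7 factors. Its levels ran from 6.14 to 6.64 with a median of 6.56 in NZB/W kidneys, against 7.40, 7.64, 7.38 and 7.35 in NZW/BXSB replicates 1 to 4. The gap between the highest NZB/W kidney and the lowest NZW/BXSB kidney was wider than the range of either strain. The means were 6.50 ± 0.17 (SD, n = 7) in NZB/W and 7.44 ± 0.14 (SD, n = 4) in NZW/BXSB kidneys, a difference of -0.94 (SE 0.09, 95% interval -1.14 to -0.75), or 1.92-fold lower (limma, adjusted p = 7.03e-07). It was lower under every alternative that was run, from -0.88 without NZW/BXSB replicate 2 to -1.63 on the deposited scale, and its size was above that of 92.3% of tested genes.

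Gata3 is also a factor of T cells and type 2 innate lymphoid cells. Of 10 markers of these cells 6 were higher in NZB/W kidneys, 2 lower and 2 did not pass on the common scale, against 0 higher and 6 lower on the deposited scale, and their mean level lay at 5.97 to 6.09 in NZB/W kidneys and at 5.89 to 5.96 in NZW/BXSB kidneys. The part of these cells in the Gata3 value was not tested. Icos and Il1rl1, the IL-33 receptor of type 2 innate lymphoid cells, were higher by 0.55 ± 0.07 and 0.48 ± 0.06 on the common scale (difference ± SE). Both did not pass on the deposited scale (-0.07 and -0.12). Cd4 was lower by 0.70 ± 0.06, and Cd2 was lower as well, at -0.51 ± 0.06. The Cd2 mean of 4.92 in NZB/W kidneys lay under 5.42, below which 95% of genes called below baseline in that strain lay. Background therefore limits the Cd2 difference. Markers of the urothelium that lines the renal pelvis were 2 higher, 1 lower and 5 not passing of 8. On the deposited scale 0 were higher and 8 were lower. Their mean level lay at 6.95 to 7.17 in NZB/W kidneys and 7.03 to 7.10 in NZW/BXSB kidneys. Principal cell markers were 2 higher, 1 lower and 7 not passing of 10 (1 higher and 8 lower on the deposited scale). Their mean level lay at 9.39 to 9.65 in NZB/W kidneys and 9.21 to 9.38 in NZW/BXSB kidneys. Without NZB/W replicate 2 the called urothelial markers were 5, and without NZB/W replicate 5 the called principal cell markers were 5.

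Targets known for Gata3 gave no common direction, with 1 higher, 1 lower and 1 not passing of 3 tested, and 1 call without NZW/BXSB replicate 2. On the deposited scale 0 of the 3 were higher and 2 were lower. Of all tested genes 33.3% were higher and 36.1% lower on the common scale, and 5.56% and 84% on the deposited scale. Casr, the calcium-sensing receptor, lay at 7.17 to 7.66 in NZB/W kidneys and at 7.74 to 7.80 in NZW/BXSB kidneys (difference -0.36, SE 0.08, adjusted p = 0.00177). Th, tyrosine hydroxylase, lay at 6.25 to 7.35 in NZB/W kidneys and at 5.89 to 6.67 in NZW/BXSB kidneys (difference 0.56 on the common scale, -0.11 on the deposited scale). Th is also a gene of the adrenal medulla, and adrenal cortex markers in the same kidneys had a mean level of 5.30 to 10.68 in NZB/W and 7.59 to 8.82 in NZW/BXSB kidneys, whose part in the value of Th was not tested. Pth1r, the parathyroid hormone receptor, did not pass (-0.15, adjusted p = 0.247). The action of Gata3 on Casr is known from the parathyroid.

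Of the 5 relatives of Gata3 that were tested, 3 were higher in NZB/W kidneys on the common scale, and none was called higher on the deposited scale. Gata2, an endothelial and collecting duct factor, lay at 8.05 to 8.23 in NZB/W kidneys and at 7.87 to 8.11 in NZW/BXSB kidneys (difference 0.20, SE 0.06, adjusted p = 0.00514). Gata1 and Gata6 were higher by 0.39 ± 0.06 and 0.21 ± 0.07 (difference ± SE). Gata4 was lower by 0.30 ± 0.06, and Gata5 did not pass (0.12, limma, adjusted p = 0.0624). Gata5 was tested through NZW/BXSB kidneys alone, and its means of 5.36 in NZB/W and 5.25 in NZW/BXSB kidneys are limited by background. Over all paralogs of the 7 factors, 8 of 18 tested were higher, 5 lower (Grhl1, tested through NZW/BXSB kidneys alone, among them) and 5 did not pass. Their median difference was 0.08, and 33.3% of all tested genes were higher and 36.1% lower. On the deposited scale 0 were higher and 16 were lower, beside 5.56% and 84% of all tested genes.

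Other collecting duct factors were called on both sides. Of 9 tested, 4 were higher (beside 33.3% of all tested genes), 2 lower (beside 36.1%) and 3 did not pass (median 0.08). On the deposited scale 0 were higher and 8 lower, beside 5.56% and 84%. Foxi1, the forkhead factor of intercalated cells, lay at 8.86 to 9.18 in NZB/W kidneys and at 8.20 to 8.53 in NZW/BXSB kidneys, 1.58-fold higher on the common scale and -0.06 as deposited (adjusted p = 2.91e-06 and 0.442). Ehf, an epithelial ETS factor, lay at 6.17 to 6.78 in NZB/W kidneys and at 7.11 to 7.50 in NZW/BXSB kidneys, 1.82-fold lower (adjusted p = 7.06e-06). Intercalated cell markers, Foxi1 and Atp6v1b1 among them, were 3 higher, 1 lower and 5 not passing of 9. On the deposited scale 0 of the 9 were higher and 8 were lower.

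**Figure D4:**
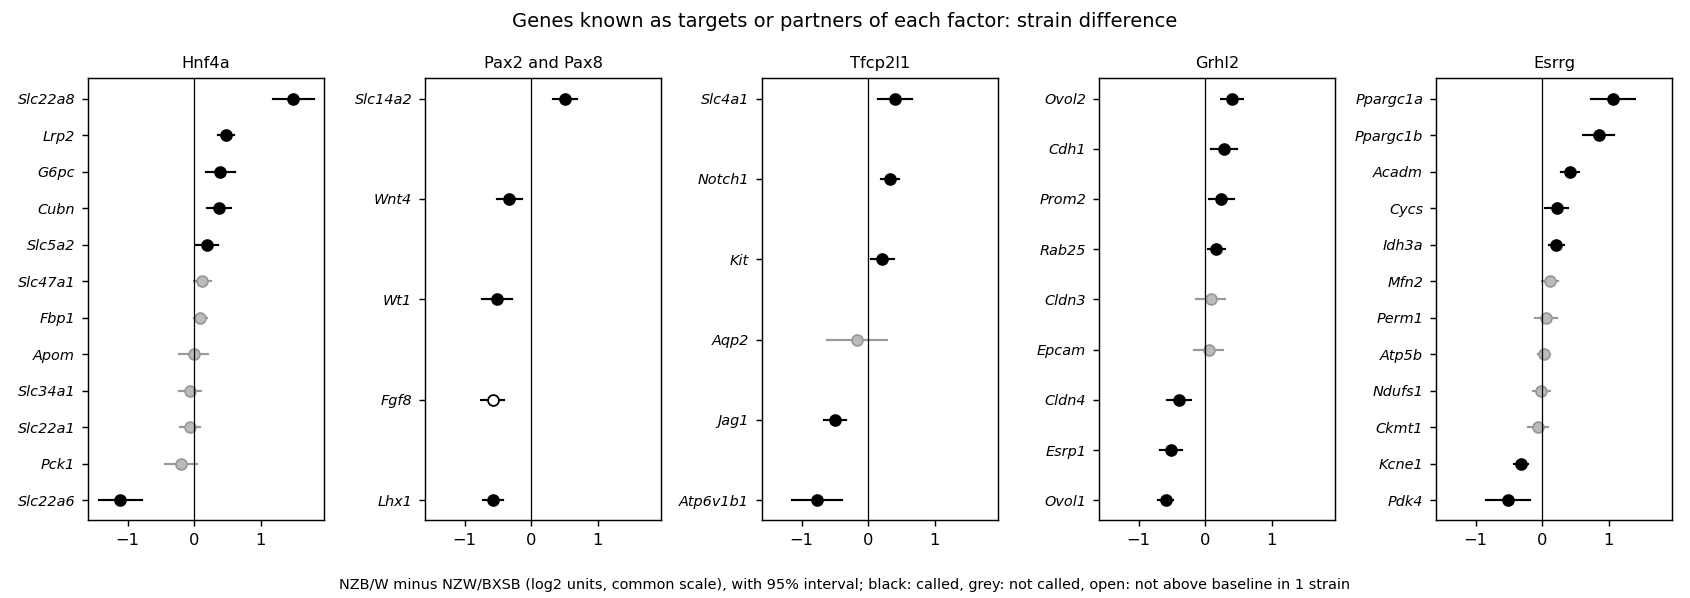
Difference between strains (NZB/W minus NZW/BXSB, log2 units, common scale) with its 95% interval for genes known as targets or partners of Hnf4a, of Pax2 and Pax8, of Tfcp2l1, of Grhl2 and of Esrrg; black points were called, grey points were not, and open points were not above baseline in 1 strain. Slc22a8 lay at 1.49 and Slc22a6 at -1.11 in the Hnf4a panel, and Ppargc1a and Ppargc1b led the Esrrg panel; on the deposited scale Slc22a8 alone of these genes was called higher.

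Outside the tubule calls also lay in both directions, as they did over all tested genes (33.3% higher and 36.1% lower). Of 7 podocyte factors 3 were higher, 2 lower and 2 did not pass (median 0.17). On the deposited scale 0 were higher and 5 lower, beside 5.56% and 84% of all tested genes. Lmx1b, which patterns the glomerular basement membrane, lay at 7.52 to 7.76 in NZB/W kidneys and at 6.82 to 7.05 in NZW/BXSB kidneys, and Tcf21 lay at 9.52 to 9.97 in NZB/W kidneys and at 8.87 to 9.20 in NZW/BXSB kidneys; both were near 0 as deposited, at -0.04 and -0.02. Of 7 factors of nephron progenitors 2 were below baseline in both strains (Osr1 and Eya1). Of the 5 tested 2 were higher, 2 lower (Cited1, tested through NZW/BXSB kidneys alone, among them) and 1 did not pass. On the deposited scale 0 of the 5 were higher and 4 were lower. Meox1 was higher by 0.69 ± 0.09 and Sall1 by 0.46 ± 0.08 on the common scale, at -0.00 and -0.24 on the deposited scale, and Cited1 was at least 1.29-fold lower in NZB/W kidneys.

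The factors also varied between kidneys of a strain. Emx1 had the widest spread in NZB/W kidneys, with an SD of 0.20 that was above that of 84.9% of tested genes, and Grhl2 had the narrowest, with an SD of 0.11, above that of 42.1%. In NZW/BXSB kidneys Gata3 varied most, with an SD of 0.14, and replicate 2 lay 0.20 above the strain mean. NZB/W replicate 3 was the lowest kidney of its strain for both Emx1 and Gata3, at -0.37 and -0.36 from the strain mean, and the highest for Grhl2, at 0.18. Replicates 1 and 5 of NZB/W were high for Tfcp2l1, at 0.24 and 0.23, and low for Esrrg, at -0.19 and -0.22. Hnf4a was highest in NZB/W replicates 6 and 7, at 0.18 and 0.21, and the mean level of its 12 target genes was highest in the same kidneys, at 12.30 and 12.27, against 12.01 to 12.13 in NZB/W replicates 1 to 5. Other lists were also highest in these kidneys, among them proximal tubule markers (12.39 and 12.38, against 12.11 to 12.24 in replicates 1 to 5). That list shares Slc34a1, Slc5a2, Lrp2, Cubn, Slc22a6 and Slc22a8 with the Hnf4a targets, so the 2 means are not separate. Distal convoluted tubule markers (10.65 and 10.55, against 10.15 to 10.46) and intercalated cell markers (9.35 and 9.33, against 9.02 to 9.21) were highest there too. The part of these lists in the Hnf4a values was not tested.

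**Figure D5:**
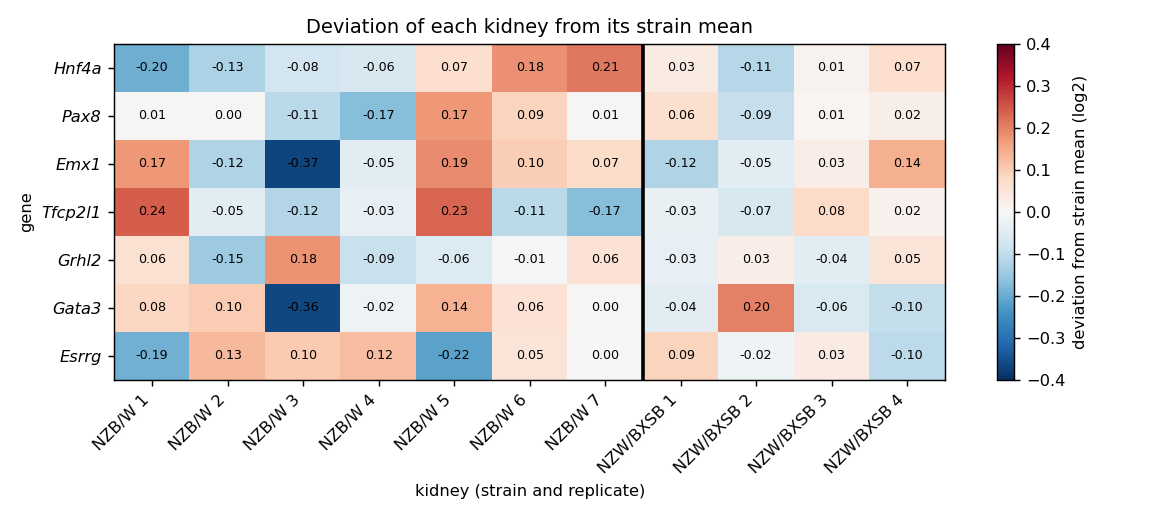
Deviation of each kidney from its strain mean (log2 units, common scale), with the 7 factors in rows, the 7 NZB/W kidneys left of the vertical line and the 4 NZW/BXSB kidneys right of it. NZB/W replicate 3 stood out for Emx1 and Gata3, and replicates 1 and 5 paired a high Tfcp2l1 with a low Esrrg.

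Across the 7 NZB/W kidneys, 21 pairs of factors were compared and none passed after adjustment. The lowest adjusted p was 0.303 (exact permutation test of Pearson's r, two-sided), for 4 pairs. Emx1 and Gata3 gave r = 0.843 (exact permutation p = 0.0333, n = 7) and rho = 0.643 (exact permutation p = 0.139), with r = 0.914 after leaving out the 2 kidneys farthest from the median of Emx1. Tfcp2l1 and Esrrg gave r = -0.839 (exact permutation p = 0.0466, n = 7) and rho = -0.321 (exact permutation p = 0.498), and r turned to 0.885 without the 2 farthest kidneys, so that this relation rests on them. Emx1 and Esrrg gave r = -0.743 (exact permutation p = 0.0577, n = 7) and rho = -0.857 (exact permutation p = 0.0238, adjusted p = 0.464).

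For each factor the 3 tested genes with the most similar course over the 11 kidneys were looked up, each gene taken as its deviation from its strain mean. These are the highest of 14419 correlations and are given as a description. Esrrg ran closest to Limch1 (r = 0.964), Serinc1 (0.958) and Acsl3 (0.957). Hnf4a ran closest to Mgat3 (r = 0.957), Ube4a (0.932) and Epb41 (0.921), which were 0.929, 0.786 and 0.794 without NZB/W replicates 6 and 7, so that the last 2 leaned on those kidneys. For Tfcp2l1 they were Stat3 (r = 0.947), Xrcc1 (0.931) and Slc47a1 (0.914), for Emx1 Hdac7 (0.95), Icmt (0.945) and Atp5d (0.944), and for Pax8 Neu1 (0.928), Olfml1 (0.922) and Slc8b1 (0.917). Gata3 ran closest to Rhno1 (r = 0.912), Trmt5 (0.901) and Hes1 (0.899), and Grhl2 to Slamf8 (r = 0.952), Gm5124 (0.941) and Htr3a (0.917). The strain differences of these neighbours varied. The 3 closest to Grhl2 were all called higher in NZB/W kidneys on the common scale, as Grhl2 was (0.41 for Slamf8, 0.31 for Gm5124 and 0.88 for Htr3a). Their values on the deposited scale, where Grhl2 was at -0.51, are not given. Slamf8 lay at 4.94 to 5.02 in NZW/BXSB kidneys and at 5.18 to 5.66 in NZB/W kidneys. In NZW/BXSB 95% of genes called below baseline lay under 5.03, so background limits the Slamf8 difference. Of those closest to Esrrg, which was 0.59 higher, Limch1 was higher by 0.80, Serinc1 lower by 0.38, and Acsl3 did not pass (-0.02).

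RNA quality and array controls were read from the control probe sets. The log2 signal of 3' over 5' probe sets was 0.68 to 0.82 in NZB/W and 0.77 to 0.94 in NZW/BXSB kidneys for Actb, and -0.05 to 0.13 in NZB/W and -0.16 to -0.07 in NZW/BXSB kidneys for Gapdh, the second without overlap. For pyruvate carboxylase it was 3.54 in NZB/W replicate 1 and 2.25 to 2.83 in its 6 strain mates, with 2.58 to 3.24 in NZW/BXSB kidneys. That kidney also stood apart in the dap spike-in, where it read 8.07 and its 6 strain mates read 9.23 to 10.87, with 10.18 to 10.93 in NZW/BXSB kidneys. No call of the 7 factors changed without NZB/W replicate 1, and Hnf4a, not called in either case, moved to 0.01.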

How the data were processed

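Gene expression was measured in whole kidneys of NZB/W and NZW/BXSB mice. The authors deposited RMA log2 expression values, 1 row per Entrez gene, for 16475 genes and 64 control rows (3 of them without values). For each strain they also deposited a list with a Yes or No call of above baseline. The genome build was not stated by any source at hand, and the cause of the offset between strains is unknown. By the study's methods the arrays were normalized and batch-corrected together, yet the deposited values carry this offset. Whether the deposited values had that treatment is not stated. Columns were matched to samples by name, and strains and replicates were taken from the labels, with no batch stated.

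Rows were named by RefSeq (16229 genes) or by the deposited symbol (246). Values were quantile normalized over the 11 arrays and fitted by limma 3.58.1 in R 4.3.3 (lmFit, eBayes), NZB/W minus NZW/BXSB, over the 14419 genes above baseline in at least 1 strain, with Benjamini-Hochberg adjustment and a threshold of 0.05. The fit was tested on simulated data. The study's methods used SAM with fold limits, which were run here as an alternative on the limma values. Other alternatives were the deposited scale, median centring, a test over all genes or over the 13138 above baseline in each strain, a trend with intensity, the replicate number as a block, and leaving out kidneys. No set test was run. The number of arrays limits the precision.

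Named genes were all 8 factors, up to 4 genes with the smallest p in each further list, the 3 genes most correlated with each factor, and every paralog above baseline. The factors and lists were chosen with earlier results of these data known. Some genes are not reported here.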

Additional observations from a re-analysis of the deposited data

Results flagged for a closer look

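Of 14 sets of kidneys examined (7 factors in each of 2 strains), 1 held a kidney that stood apart from the others of its strain. NZB/W replicate 3 had a Gata3 level of 6.14, while its 6 strain mates lay at 6.48 to 6.64, and the gap to its nearest neighbour took 0.685 of the strain's range, above the critical value of 0.568 for 7 samples. Chance marks about 1 in 20 such sets. The same kidney had the lowest Emx1 level of its strain. Without it the Gata3 difference was -0.88, and the gene was still called lower in NZB/W kidneys.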

How the results depend on the processing

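The differences of Gata3, Tfcp2l1 and Pax8 were negative under all 19 alternatives, and Gata3 passed the test in each. The scale turned 3 of the other signs. On the deposited scale 801 genes were higher and 12105 lower in NZB/W kidneys, and Hnf4a was called at -0.73, Emx1 turned to -0.56, Grhl2 to -0.51 and Esrrg to -0.12. Under the study's fold limits 2056 genes were higher and 1963 lower, and Pax8 (-0.17), Tfcp2l1 (-0.29) and Grhl2 (0.17) no longer passed. Without NZB/W replicates 6 and 7 Grhl2 was 0.16 and not called (adjusted p = 0.0577). With single kidneys left out, genes called higher numbered 4469 to 4814 and lower 4842 to 5227, and the differences were -0.063 to 0.00753 for Hnf4a (the positive value without NZB/W replicate 1), -0.20 to -0.14 for Pax8, 0.11 to 0.21 for Emx1, -0.33 to -0.26 for Tfcp2l1, 0.14 to 0.20 for Grhl2, -0.98 to -0.88 for Gata3 and 0.55 to 0.62 for Esrrg. The cause of the changes was not tested.

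Replicate numbers are shared by the strains, and the deviations of same-numbered kidneys correlated at -0.08, 0.28, -0.00 and -0.13. Of 4 NZW/BXSB kidneys 1 correlated best with its own number. Whether same-numbered kidneys share more than a number was not tested. With the replicate block over replicates 1 to 4, Grhl2 was 0.18 and not called (adjusted p = 0.103), and the other 6 factors kept their sign and their side of the threshold, with 4487 genes higher and 4798 lower. Of genes called below baseline, 95% lay under 5.42 in NZB/W and under 5.03 in NZW/BXSB kidneys. Levels near these values limit what can be said of Fgf8, Cited1, Grhl1, Gata5, Slamf8, Cd2 and Pax7.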
